A study of Homo sapiens with 16 samples.

Results

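The response to the siRNA siCAG was compared between PC3, a line derived from prostate cancer, and HeyA8, a line derived from ovarian cancer. The quantity examined was the difference between the lines, that is, the log2 fold change of siCAG over the non-targeting control siNT1 in PC3 minus the same fold change in HeyA8. It was taken from 8 libraries of the 16 in the series: for either siRNA, each line was sequenced once at 24 h and once at 48 h after transfection. Both lines are labelled wild type, and the labels give 1 nM of siRNA delivered with a lipid reagent, whereas the methods of the study name another dose. A positive difference means that a gene was lower after siCAG in HeyA8 than its change in PC3 would give, and a negative difference the reverse. Each library was total RNA and held 28216897 to 31790209 reads counted on genes, with a median of 28909502. Because each line, siRNA and time has 1 library, the 24 and 48 h libraries serve as the 2 replicates. The model takes out the effect of time in each line, so the remaining spread includes any change of the siCAG response with time. Nothing in the labels says that the 2 time points came from separate cultures, so the p-values measure the spread between these libraries. The methods of the study describe wells lysed at 24 h and the remaining wells at 48 h, for a list of siRNAs without siCAG.

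Small interfering RNAs are short duplexes of which one strand, the guide, is loaded into an Argonaute protein and pairs with complementary RNA, which is then cut or degraded. The name siCAG points to a repeat of the triplet CAG, whose complement is a repeat of CTG (CUG in RNA), although the sources used here do not give the sequence of its strands. Cells whose growth is arrested lose the transcripts of DNA replication genes, which E2F factors switch on in late G1, and of mitotic genes, which are read late in the cycle through the DREAM and MuvB complexes. Stressed cells can in turn raise targets of p53, targets of the translation-linked stress factor ATF4, interferon-induced genes and NF-kB-driven cytokines. These programs were followed with 25 gene lists, cell type markers and housekeeping families included, and were compared in both lines. In bulk RNA a smaller share of cycling cells and less RNA per cell cannot be told apart.

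The labels of the lines were checked against marker genes. HOXB13, a homeobox factor of the prostate lineage, had 5137 to 8784 normalized counts in the 4 PC3 libraries and 18.7 to 74.9 in the 4 HeyA8 libraries. The 7 tested prostate markers summed to 8459.5 to 11422.8 in PC3 and to 926.7 to 1635.9 in HeyA8. STEAP1 on that list did not separate the lines, with means of 716 in PC3 and 823 in HeyA8. PAX8, a factor of the Müllerian lineage, was the most abundant of the ovarian markers in every HeyA8 library, at 4642 to 7091. The 6 tested ovarian markers summed to 1022.8 to 1310.4 in PC3 and to 6626.9 to 9043.5 in HeyA8. HOXA9 on that list went the other way, with means of 218 in PC3 and 4.10 in HeyA8. KLK2 and KLK3, which also mark prostate epithelium, did not pass the filter on low counts, and neither did FOLR1 and EMX2 among the ovarian markers. CDH1, the adhesion protein of epithelia, was at 216 to 735 in PC3 and at 1.04 to 2.11 in HeyA8. The epithelial markers together did not separate the lines: the 15 summed to 43743 to 56763 in PC3 and to 49693 to 67974 in HeyA8. VIM, an intermediate filament of mesenchymal cells, was the most abundant mesenchymal marker of the HeyA8 controls at 208101 and 208393. Of 9 blood and endothelial markers 4 passed the filter, and their summed level was 77.1 to 344 per library, with PECAM1 leading in PC3 and CDH5 in HeyA8. That sum was 131 and 166 in the HeyA8 siNT1 libraries and 228 and 344 in the HeyA8 siCAG libraries, and its part in the results below was not tested.

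As a set, transcripts that hold a CTG run of at least 6 triplets were low after siCAG in both lines, and they serve here as the response the lines have in common. The first 5 stretches below are shown because their genes had the largest changes in both lines among genes with at least 6 triplets, and the last 2 because earlier results of these data name PRKCSH and NUCB1. All lie in the coding sequence, are written 5′ to 3′ along the transcript (hg38, GENCODE reference transcripts), and have the CTG run in capitals.
RPL14, chr3:40462030-40462059, plus strand: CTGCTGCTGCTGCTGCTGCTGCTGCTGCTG
BRI3BP, chr12:124993835-124993864, plus strand: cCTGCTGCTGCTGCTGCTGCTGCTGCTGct
LRRC59, chr17:50383141-50383170, minus strand: ctgaagCTGCTGCTGCTGCTGCTGctattt
SRPX, chrX:38220719-38220748, minus strand: gcctCTGCTGCTGCTGCTGCTGCTGcgcgt
CTSA, chr20:45891596-45891625, plus strand: ttcCTGCTGCTGCTGCTGCTGCTGCTGcta
PRKCSH, chr19:11436121-11436150, plus strand: ctgttgccgCTGCTGCTGCTGctacccatg
NUCB1, chr19:48900830-48900859, plus strand: ctgttgccgCTGCTGCTGCTGctcctgctt
RPL14, BRI3BP, LRRC59, SRPX and CTSA carry 10, 9, 6, 7 and 8 triplets in a row. The runs of PRKCSH and NUCB1 are of 4 triplets, a class whose median changes were only −0.26 in PC3 and −0.19 in HeyA8.

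Across 15434 genes that passed the filter on low counts, the difference between the lines passed a Benjamini-Hochberg adjusted p of 0.05 for 0 genes in the edgeR quasi-likelihood test (0% of those tested). The smallest adjusted p was 0.157. At an unadjusted p under 0.05, 942 genes had a positive difference (6.1%) and 848 a negative one (5.49%), and DESeq2 called 298. The response itself was called for 0 genes in PC3 (0%, smallest adjusted p 0.0627, 1010 genes at an unadjusted p under 0.05, 147 by DESeq2). In HeyA8, 683 genes fell (4.43%) and 485 rose (3.14%). With all 16 libraries, which include mock-treated cells and siGGGGGC, another siRNA, and raise the residual degrees of freedom from 2 to 6, the difference was called for 101 of 15887 genes, 61 positive (0.384%) and 40 negative (0.252%). In that fit 96 genes fell in PC3 (0.604%) and 2 rose (0.0126%), and in HeyA8 1301 fell (8.19%) and 2028 rose (12.8%). Calls of the response in HeyA8 are from the 8 libraries below unless the 16 are named. Leaving out any 1 HeyA8 library from the 8 gave 2938 to 3803 calls for the difference, and leaving out any 1 PC3 library gave 1 or 2, the spread then coming from the other line alone. The HeyA8 response then had 6028 to 6459 calls without a HeyA8 library, and the PC3 response 1740 to 1967. Of the 16 libraries, leaving out any 1 siNT1 library left 1 to 7 calls for the difference, a PC3 siCAG library 4 or 35, and a HeyA8 siCAG library 1520 or 1043. Every difference given below as called rests on the 16-library fit, in which the median difference over all genes was −0.13 against 0.02 in the 8 libraries. Differences given with ± are estimates and SE of the 8-library fit. An adjusted p marked as of 16 libraries belongs to the other fit and not to that SE.

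**Figure D1:**
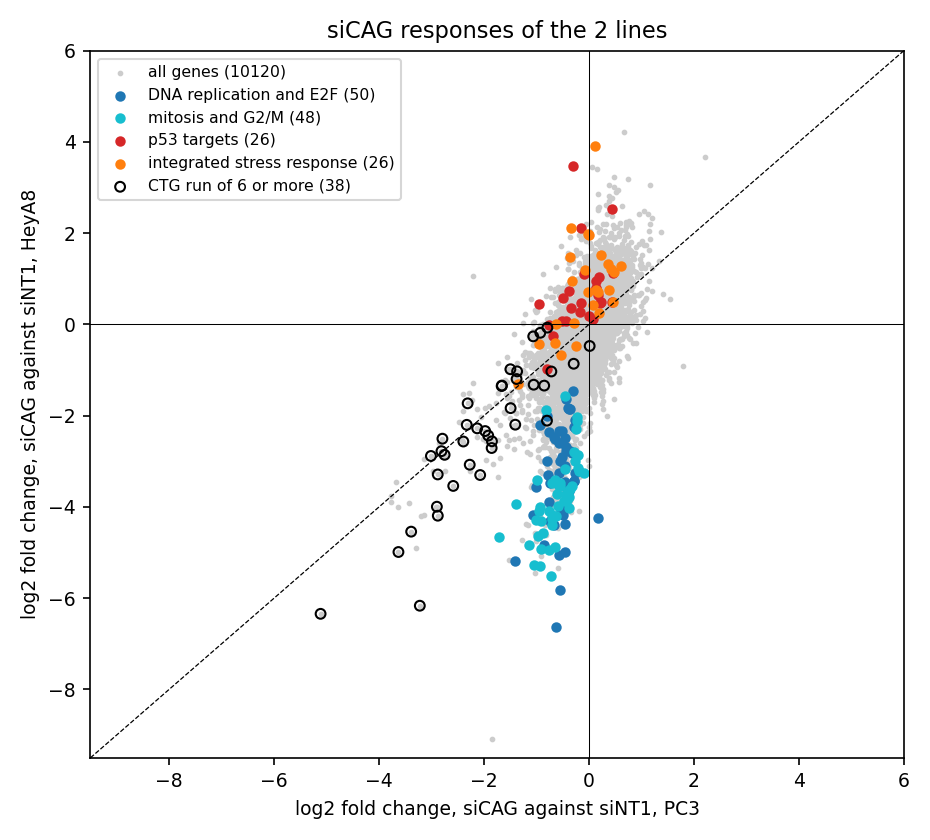
Log2 fold change of siCAG over siNT1 in PC3 (x axis) and in HeyA8 (y axis), 1 point for each gene with a mean of more than 100 normalized counts in each line, with the gene lists coloured. The dashed diagonal marks equal change. The DNA replication and mitosis genes sit below it, around medians of −0.53 and −0.62 in PC3 and −3.26 and −3.81 in HeyA8, while the genes with a CTG run of at least 6 triplets spread along it.

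The genes that fell in HeyA8 were mostly lower in PC3 as well. They were picked on their HeyA8 change, so only the PC3 values are independent of the choice. The median change of the 683 was −1.82 in HeyA8 and −0.54 in PC3. There 644 of them were below 0, and 147 changed by at least 1 on the log2 scale. Of all 15434 genes tested, 7510 were below 0 in PC3. For 321 of the 683 (47.0%) the change in PC3 was under 0.5 in size. Of the 485 genes that rose in HeyA8, with a median of 1.54, the median in PC3 was 0.33 and 413 were above 0. Here 334 (68.9%) were under 0.5 in size in PC3. How many of all tested genes were under 0.5 in size in PC3 was not counted, so the shares of 47.0% and 68.9% have no background beside them. In the other direction, the 96 genes that fell in PC3 by the 16-library fit had medians of −2.16 in PC3 and −2.20 in HeyA8, and 75 of them were called lower in HeyA8 from the 8 libraries. The difference was called for 2 of these 96.

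Genes were also sorted by the size of their responses, among the 10120 genes with a mean of more than 100 normalized counts in each line. A change of at least 1 on the log2 scale in HeyA8 and under 0.5 in PC3 was found for 722 genes that were lower (7.13%) and 392 that were higher (3.87%). The mirror class, with at least 1 in PC3 and under 0.5 in HeyA8, held 15 lower genes (0.148%) and 5 higher genes (0.0494%). Opposite changes of at least 0.5 in both lines were seen for 27 genes (0.267%). None of these genes was called for the difference in the 8 libraries. When the classes were formed again from the fold changes of the 16-library fit, they held 478, 594, 17, 4 and 31 genes in the same order, of which 31, 21, 0, 0 and 3 were called there. Members were picked on the same fold changes that the test uses, so these counts follow in part from the choice. Sizes alone say nothing of error, so genes named from these classes are given with their counts.

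DNA replication genes were low in HeyA8 at both times and much less so in PC3. All 50 genes of the list, which is of DNA replication and E2F genes, were below 0 in HeyA8, and 49 were below 0 in PC3. In HeyA8 35 fell (4.43% of all genes did) and 0 rose. A positive difference at an unadjusted p under 0.05 was found for 43, against the 6.1% of all genes. The median change was −3.26 in HeyA8 and −0.53 in PC3, and the median difference was 2.62, against 0.02 over all genes tested. With 16 libraries the difference was called for 12 members, all positive, beside 0.384% of all genes: MCM4, PCNA, RFC3, RFC4, PRIM1, POLE2, POLD3, E2F2, CCNE2, DSCC1, ZNF367 and HELLS. These encode a subunit of the replicative helicase, the sliding clamp, its loader, primase and polymerase subunits, the transcription factor E2F2, cyclin E2, a cohesion factor, a zinc finger protein and a chromatin remodeler. The median difference was 1.91 at 24 h and 3.16 at 48 h, and 1.60 without the HeyA8 siCAG library of 48 h and 1.74 without the siNT1 library of 48 h.

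POLE2 (chr14:49643552-49688380), the accessory subunit of the leading-strand polymerase, was among the genes with a response in HeyA8 and little in PC3. In PC3 it had 958 and 753 normalized counts at 24 and 48 h after siNT1 and 895 and 544 after siCAG. In HeyA8 it had 569 and 512 after siNT1 and 47.5 and 53.1 after siCAG. The groups did not overlap in HeyA8. In PC3 they overlapped across the times, and the siCAG library was the lower at each time. The log2 fold change was −0.28 ± 0.23 (SE) in PC3 and −3.42 ± 0.27 in HeyA8 (adjusted p = 0.0167), and the difference was 3.14 ± 0.35 (adjusted p = 0.226, and 0.011 with 16 libraries). WDR76 (chr15:43826914-43868419), a WD-repeat protein, went from 1121 and 806 to 90.8 and 32.9 in HeyA8 and was at 1619 and 1466 after siNT1 and 1339 and 1006 after siCAG in PC3. Its difference was 3.68 ± 0.43 (adjusted p = 0.226, and 0.011 with 16 libraries).

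ZNF367 (chr9:96385943-96418387) was at 4674 and 3095 after siNT1 and at 122 and 90.2 after siCAG in HeyA8. In PC3 it was at 1297 and 1281 after siNT1 and at 658 and 354 after siCAG, so that here both lines had lower counts after siCAG. The PC3 change of −1.41 was called with 16 libraries (adjusted p = 0.0182) and the HeyA8 change was −5.18. DSCC1, a cohesion factor, had 1377 and 1263 after siNT1 and 86.5 and 51.0 after siCAG in HeyA8, and 1934, 1342, 1362 and 677 in the same order in PC3. PCNA (chr20:5114953-5126622) was at 6600 and 5946 after siNT1 and at 1092 and 1175 after siCAG in HeyA8, and at 5686, 6033, 4334 and 3179 in PC3. The replication factor CDC6, the transcription factor E2F1 and the helicase subunit MCM2 fell in HeyA8, with log2 fold changes of −5.06, −4.37 and −2.99 against −0.57, −0.45 and −0.54 in PC3. PCNA, CDC6, E2F1 and MCM2 lie outside the rule for named genes and were chosen after their values were seen. The same holds for FAM111B (chr11:59107185-59127416), a protease gene, which had the smallest unadjusted p for the difference of any gene. It was at 1791 and 1201 after siNT1 and at 3.17 and 2.12 after siCAG in HeyA8, and at 1243 and 441 after siNT1 and 442 and 94.8 after siCAG in PC3. The difference was 7.23 ± 0.49 (adjusted p = 0.157, and 0.00458 with 16 libraries).

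**Figure D2:**
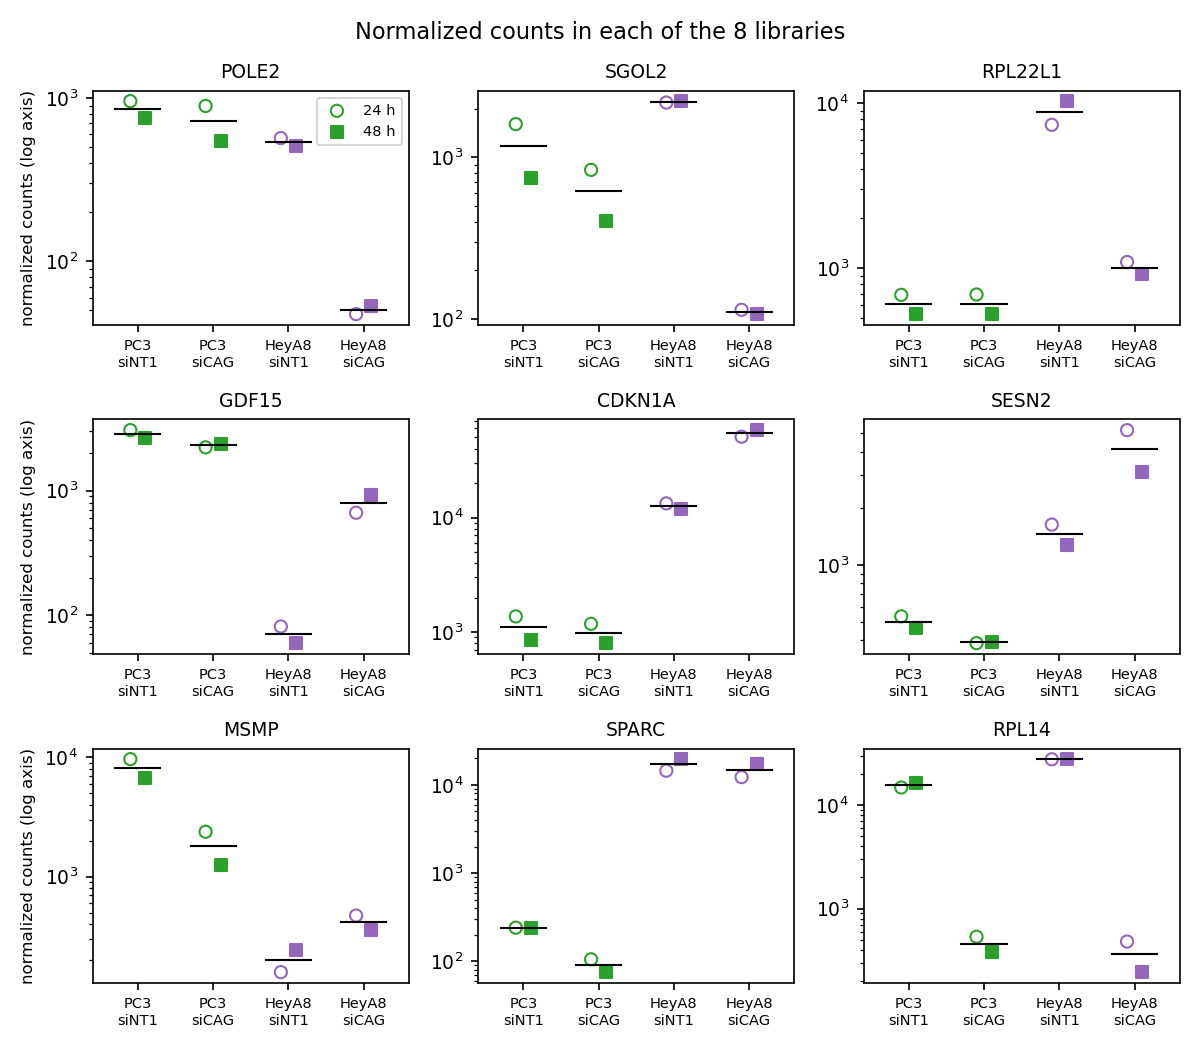
Normalized counts (log axis) of single genes in the 8 libraries, by line, siRNA and time point, 1 marker per library (open circles 24 h, squares 48 h), with a bar at the mean of the 2 time points. For POLE2 the HeyA8 siCAG libraries sit near 50 and all other libraries above 500.

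The promoters of these genes were searched for the letters GGCGGGAA or TTCCCGCC, a strong form of the E2F site read on either strand, from 250 bases before to 50 after each RefSeq start. Of 40 replication genes with a promoter in the table (of 50), 12 held it (30%), against 3.16% of all 35116 promoters and 6.15% of the 11631 tested genes with one (of 15434). The stretches below are of 4 of the 12 members, chosen for a small p for the difference and shown as examples of the match, written along the gene's strand (RefSeq, GRCh38.p14) with the motif in capitals.
PCNA, chr20:5126664-5126693, minus strand: gcagcgtcaggGGCGGGAAaaggcgtgcgt
MCM3, chr6:52284748-52284777, minus strand: taacctttggtGGCGGGAAgagttcggaag
PRIM1, chr12:56752329-56752358, minus strand: cggccgtgctgTTCCCGCCaattcctgtgg
RFC4, chr3:186806443-186806472, minus strand: cgccgttccgtGGCGGGAActgaggcgact
The mitotic genes differed from the replication genes in this respect: 2 of 42 with a promoter (4.76%) held this motif, whereas 30 of 42 (71.4%) held TTTGAA or its complement TTCAAA, the core of the cell cycle homology region, against 15.2% of all promoters and 1 of 40 replication genes. Neither motif contains the other. A match is a description of the letters and not of a bound factor. The first list was made of DNA replication and E2F genes and the second of mitosis and G2/M genes. The motif shares therefore follow in part from the make-up of the lists. They were not set against the difference between the lines.

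Some mitotic genes fell in HeyA8 as well. All 48 of 50 list members that passed the filter were below 0 in HeyA8 and in PC3, with medians of −3.81 and −0.62, and the median difference was 3.23. In HeyA8 10 fell and 0 rose, beside 4.43% of all genes that fell, and 12 had a positive difference at an unadjusted p under 0.05, beside 6.1%. With 16 libraries the difference was called for 4 of the 48, TTK, KIF20B, CENPE and SGOL2, beside the 0.384% of all genes with a positive call. The 10 were TTK, KIF11, KIF18A, KIF20B, CENPE, ASPM, ECT2, NUF2, SGOL2 and DEPDC1, which serve the spindle checkpoint, the spindle motors, the kinetochore and cytokinesis. The median difference was 1.05 at 24 h and 5.31 at 48 h, and the HeyA8 median itself went from −1.33 to −6.54. Without the HeyA8 siCAG library of 48 h the median difference was 0.64, and without the siNT1 library of 48 h it was 0.78, while it was 5.63 without either HeyA8 library of 24 h.

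The members with the smallest p were low at both times. SGOL2 (chr2:200526142-200584095), which guards centromeric cohesion, had 2184 and 2228 normalized counts after siNT1 and 114 and 107 after siCAG in HeyA8. In PC3 it had 1606 and 743 after siNT1 and 837 and 406 after siCAG. The difference was 3.41 ± 0.30 (adjusted p = 0.226, and 0.0174 with 16 libraries). CENPE, a kinetochore motor, went from 5212 and 4691 to 340 and 192 in HeyA8, and from 1379 and 625 to 734 and 450 in PC3. KIF20B, a motor of cytokinesis, went from 5224 and 4645 to 293 and 325 in HeyA8, and from 1023 and 372 to 447 and 235 in PC3. In all 3 genes the HeyA8 groups were far apart, and in PC3 the siCAG library was below the siNT1 library of the same time at both times. The log2 ratios in PC3 at 24 and 48 h were −0.94 and −0.87 for SGOL2, −0.91 and −0.47 for CENPE and −1.19 and −0.66 for KIF20B.

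Other cell cycle genes had much lower counts in HeyA8 at 48 h than at 24 h after siCAG, and they did not pass the test, whose replicates are the time points. These were chosen after their values were seen. CCNB1, the mitotic cyclin B1, was at 12284 and 13425 after siNT1 and at 6444 and 288 after siCAG in HeyA8, and between 3120 and 4011 in the 4 PC3 libraries. MKI67, the proliferation antigen Ki-67, was at 24660 and 25679 after siNT1 and at 12698 and 64.8 after siCAG in HeyA8. In PC3 it was at 10440 and 9415 after siNT1 and at 8447 and 3066 after siCAG. PLK1, a mitotic kinase, was at 4265 at 24 h and 51.0 at 48 h after siCAG in HeyA8, against 5776 and 6273 after siNT1. RRM2, a subunit of ribonucleotide reductase on the replication list, was at 4693 and 39.3 after siCAG against 10793 and 8069 in HeyA8, and in PC3 at 8896 and 5595 against 7175 and 5517. The adjusted p for the HeyA8 change of these 4 genes was 0.149 to 0.261.

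**Figure D3:**
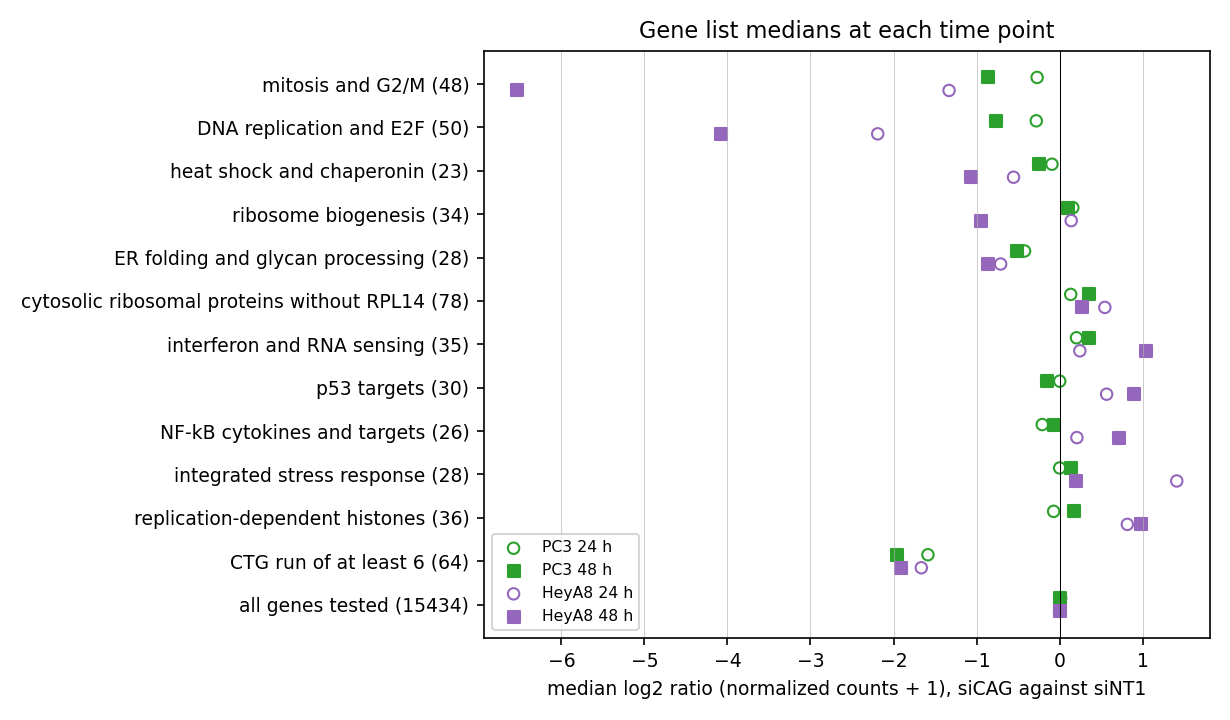
Median log2 ratio of siCAG over siNT1 (normalized counts plus 1, x axis) for each gene list (y axis, genes tested in brackets), in PC3 (green) and HeyA8 (purple) at 24 h (open circles) and 48 h (squares). The replication list lies at −0.28 and −0.77 in PC3 and at −2.19 and −4.07 in HeyA8, and the mitosis list moves from −1.33 at 24 h to −6.54 at 48 h in HeyA8.

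Targets of p53, which arrest the cycle or promote cell death, included genes that rose in HeyA8. Of 30 tested genes of 31, 5 rose in HeyA8 and 0 fell, namely CDKN1A, GDF15, BTG2, BBC3 and XPC, and 9 had a negative difference at an unadjusted p under 0.05 while 0 had a positive one, against 3.14% of all genes that rose and 5.49% with a negative difference. The medians were 0.62 in HeyA8 and −0.15 in PC3, with a median difference of −0.68. It was −1.11 without the HeyA8 siCAG library of 24 h and −1.10 without the siNT1 library of 24 h. The difference was called for 3 members with 16 libraries, all negative, beside 0.252% of all genes. CDKN1A (chr6:36676460-36687339), which encodes the cyclin-dependent kinase inhibitor p21, had 13279 and 11918 normalized counts after siNT1 and 50738 and 57873 after siCAG in HeyA8. In PC3 it had 1369 and 857 after siNT1 and 1180 and 801 after siCAG. The HeyA8 groups did not overlap. The PC3 groups overlapped across the times, and the siCAG library was the lower at each time. The log2 fold change was −0.16 ± 0.19 in PC3 and 2.11 ± 0.20 in HeyA8, and the difference was −2.26 ± 0.27 (adjusted p = 0.226, and 0.0286 with 16 libraries).

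GDF15 (chr19:18386158-18389176), a secreted stress cytokine, started from very different levels in the 2 lines. It had 81.0 and 59.5 after siNT1 and 664 and 919 after siCAG in HeyA8. In PC3 it had 3059 and 2637 after siNT1 and 2224 and 2382 after siCAG, so that the PC3 libraries were above the HeyA8 libraries under either siRNA. The difference was −3.78 ± 0.41 (adjusted p = 0.226, and 0.0308 with 16 libraries). BTG2, an antiproliferative gene, went from 287 and 268 to 820 and 874 in HeyA8, and from 57.9 and 64.4 to 32.7 and 29.7 in PC3. BBC3, the pro-apoptotic protein PUMA, went from 252 and 312 to 1001 and 838 in HeyA8 and was at 28 to 38.1 in all PC3 libraries. MDM2, chosen after its values were seen, is the ubiquitin ligase that restrains p53, and had 8495 and 7863 after siNT1 and 10414 and 29548 after siCAG in HeyA8, against 1738 to 1988 in PC3. PGPEP1, a peptidase gene next to GDF15 on chromosome 19 (18340587 to 18369953), went from 198 and 319 to 1415 and 3087 in HeyA8, and from 597 and 1020 to 727 and 1426 in PC3. Its difference was −2.67 ± 0.32 (adjusted p = 0.226, and 0.011 with 16 libraries).

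The targets of the integrated stress response, which ATF4 induces when translation initiation is curbed, also included genes that rose in HeyA8. Of 28 genes 8 rose and 0 fell, namely DDIT3, SESN2, NUPR1, DDIT4, STC2, ADM2, PPP1R15A and WARS, and 8 had a negative difference at an unadjusted p under 0.05, beside the 3.14% and 5.49% of all genes. The median change in HeyA8 was 1.41 at 24 h and 0.20 at 48 h, against 0.00 and 0.13 in PC3. The median difference went from −1.32 to −0.02, and it was −0.23 without the HeyA8 siCAG library of 24 h and −1.58 without that of 48 h. SESN2 (chr1:28259452-28282491), a sensor of leucine and of stress, had 1641 and 1280 after siNT1 and 5207 and 3106 after siCAG in HeyA8, and 535, 465, 385 and 393 in PC3. Its difference was −1.83 ± 0.31 (adjusted p = 0.261, and 0.041 with 16 libraries). DDIT4, an inhibitor of mTORC1, had 179 and 305 after siNT1 and 5288 and 2320 after siCAG in HeyA8, and 383, 547, 382 and 635 in PC3.

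ADM2, a peptide hormone, had 211 and 169 after siNT1 and 2012 and 929 after siCAG in HeyA8 and 50.9 to 78 in PC3. DDIT3, the factor CHOP, went from 149 and 270 to 800 and 796 in HeyA8, and PC3 had 662 to 870 in all 4 libraries. Thus the siCAG level of DDIT3 in HeyA8 was within the range of PC3 under either siRNA. Its difference was −2.01 ± 0.40 (not called from the 8 libraries, adjusted p = 0.0268 with 16 libraries). DDIT3 was chosen after its values were seen. In 3 members that did not pass the test, chosen after their values were seen, the HeyA8 siCAG level was higher at 24 h than at 48 h. CHAC1, which degrades glutathione, was at 86.1 and 86.3 after siNT1 and at 872 and 123 after siCAG in HeyA8, and ASNS, asparagine synthetase, at 1153 and 1438 after siNT1 and at 4951 and 886 after siCAG. TRIB3, a pseudokinase, was at 3650 and 1444 after siCAG against 871 and 1146.

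Several interferon-induced and RNA-sensing genes rose in HeyA8. Of 35 tested genes of 40, 8 rose and 0 fell, namely ISG15, IFIT2, OAS2, OASL, STAT2, IRF9, DHX58 and UBE2L6, and 8 had a negative difference at an unadjusted p under 0.05, where 3.14% and 5.49% of all genes did so. The medians were 0.85 in HeyA8 and 0.17 in PC3, and the median difference was −0.59 (−0.21 at 24 h and −0.80 at 48 h). It was −1.10 without either HeyA8 library of 24 h and −0.32 without the siNT1 library of 48 h. With 16 libraries the difference was called for 0 members. IFIT2, which binds viral RNA, had 91.3 and 63.0 after siNT1 and 373 and 577 after siCAG in HeyA8, and 963 and 769 after siNT1 and 1366 and 1314 after siCAG in PC3. STAT2, a transducer of type I interferon, had 829 and 975 after siNT1 and 2080 and 4271 after siCAG in HeyA8. PC3 had 1814 and 2318 after siNT1 and 2301 and 3055 after siCAG. In both genes the siCAG library was above the siNT1 library of the same time in either line. OAS2, an oligoadenylate synthetase, was at 2.08 and 1.17 after siNT1 and at 21.1 and 13.8 after siCAG in HeyA8, so its HeyA8 change rests on few reads. In PC3 it was also higher after siCAG at each time, with 509 and 664 after siNT1 and 761 and 987 after siCAG.

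Cytokines and other NF-kB targets included 6 genes of 26 tested (of 28) that rose in HeyA8 and 0 that fell, namely IL6, IL1B, ICAM1, LIF, CSF2 and CSF3, beside 3.14% and 4.43% of all genes. The medians were 0.40 in HeyA8 and −0.10 in PC3. The median difference was −0.73, but it was 0.33 when mock-treated cells replaced siNT1 as the control, so its direction depends on the control. It was −1.28 without either HeyA8 library of 24 h. IL1B, an inflammatory cytokine, had 185 and 256 after siNT1 and 649 and 1246 after siCAG in HeyA8, and 343 to 424 in PC3. ICAM1, an adhesion receptor for leukocytes, was chosen after its values were seen. It had 65.4 and 71.2 after siNT1 and 563 and 2849 after siCAG in HeyA8, and 1466 to 2838 in PC3. LIF, a cytokine of the interleukin 6 family, had 545 and 700 after siNT1 and 1351 and 1507 after siCAG in HeyA8, and 4738, 5480, 3781 and 3944 in PC3. CSF2, a growth factor of myeloid cells, was at 0.0 and 1.17 after siNT1 and at 9.50 and 29.7 after siCAG in HeyA8, too low for a fold change, and at 84.5 to 161 in PC3. With 16 libraries the difference was called for 0 members of this list.

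Replication-dependent histones, whose transcripts mostly lack a poly(A) tail and are made in S phase, were not low in HeyA8 as the replication genes were. Of 36 genes 5 rose and 0 fell, the median change was 0.92 in HeyA8 and 0.01 in PC3, and 9 had a negative difference at an unadjusted p under 0.05 against 1 positive. Of all genes 3.14% rose and 5.49% had such a negative difference. HIST1H2AC (chr6:26124145-26124690), an H2A histone, had 98.6 and 75.8 after siNT1 and 652 and 1327 after siCAG in HeyA8. PC3 had 497, 785, 536 and 896, where the rise is with time under both siRNAs. Its difference was −3.27 ± 0.52 (adjusted p = 0.239, and 0.0115 with 16 libraries). HIST1H2BC and HIST2H2BE, both H2B histones, went from 34.3 and 18.7 to 109 and 227 and from 74.7 and 37.3 to 370 and 976 in HeyA8. Histone genes are near-identical in sequence, so reads could be split among copies, and the median difference of the list moved from −1.29 to −0.61 without the HeyA8 siNT1 library of 48 h and to −0.75 without the siCAG library of 48 h.

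Among the protein-folding lists, heat shock and chaperonin genes had 8 members of 23 that fell in HeyA8 and 0 that rose, namely HSPA1B, HSPH1, HSP90AA1, HSPD1, HSPE1, CCT6A, CCT8 and TCP1, beside 4.43% of all genes that fell. The medians were −0.85 in HeyA8 and −0.21 in PC3, and 6 had a positive difference at an unadjusted p under 0.05, as did 6.1% of all genes. HSP90AA1, an abundant chaperone with several pseudogenes, had 179715 and 193563 after siNT1 and 52787 and 50720 after siCAG in HeyA8, and 87088, 60879, 68641 and 31698 in PC3. The chaperonin subunit CCT6A fell in HeyA8, from 22000 and 23910 to 12339 and 9867, and was at 13968, 12457, 13876 and 10939 in PC3. The median difference of the list was 0.58, and it was 0.18 without the HeyA8 siCAG library of 48 h and 0.32 without the siNT1 library of 48 h. Chaperones and glycan-processing enzymes of the endoplasmic reticulum had medians of −0.83 in HeyA8 and −0.50 in PC3 and 5 of 28 tested (of 29) that fell in HeyA8, beside 4.43% of all genes, namely HSP90B1, SDF2L1, PRKCSH, NUCB1 and ERO1A. ERO1A, an oxidase that drives disulfide formation, had 7864 and 8259 after siNT1 and 2137 and 4300 after siCAG in HeyA8 and 11616 to 13138 in PC3.

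Genes of ribosome assembly had a median of 0.14 at 24 h and −0.94 at 48 h in HeyA8, against 0.16 and 0.10 in PC3. Of 34 genes 2 fell in HeyA8, UTP15 and NOP58, which act on ribosomal RNA precursors, a share near the 4.43% of all genes. A positive difference at an unadjusted p under 0.05 was found for 7 of them, and for 6.1% of all genes. The median difference of 0.57 was −0.03 without the HeyA8 siCAG library of 48 h and 0.11 without the siNT1 library of 48 h. Of 78 cytosolic ribosomal protein genes other than RPL14, 0 were called in HeyA8 from the 8 libraries and 31 were called higher with 16 libraries, where 12.8% of all genes rose, with medians of 0.40 there and 0.25 in PC3. RPL22L1 (chr3:170864876-170870256), a paralog of a ribosomal protein whose reads could be shared with copies, was not in that list and stood apart. It had 7371 and 10253 after siNT1 and 1089 and 926 after siCAG in HeyA8, and 689, 530, 692 and 527 in PC3. Its change in PC3 was 0.00 ± 0.25 and in HeyA8 −3.11 ± 0.27. The difference was 3.11 ± 0.36 (adjusted p = 0.226, and 0.0174 with 16 libraries).

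Of the remaining lists, mitochondrial ribosomal proteins had 0 called of 77 in HeyA8 from the 8 libraries, respiratory chain subunits 1 of 75 and hypoxia genes 0 of 28. With 16 libraries, 5 mitochondrial ribosomal proteins fell and 2 rose in HeyA8, 1 respiratory chain subunit fell and 10 rose, and 0 hypoxia genes fell and 4 rose. In that fit 8.19% of all genes fell and 12.8% rose. The shares that rose are near this background for the respiratory chain and hypoxia lists, and both mitochondrial ribosomal shares are below it. From the 8 libraries, the counts of the lists that follow stand beside 3.14% of all genes that rose and 4.43% that fell, and counts of 1 or 2 members are too few to be told from that background. Among 23 sterol synthesis genes HMGCS1, an early enzyme of the pathway, fell in HeyA8 and TM7SF2, a sterol reductase, rose, at −1.66 and 1.73. Of the 23, 21 were below 0 in HeyA8 and 20 in PC3, with medians of −0.70 and −0.31, and with 16 libraries 4 fell and 1 rose in HeyA8, beside 8.19% and 12.8% of all genes. Among 25 genes of MAPK feedback, 5 rose in HeyA8, the phosphatases DUSP4, DUSP5 and DUSP6 with JUNB and IER3, and AREG, an EGF receptor ligand, fell. AREG was at 32.2 and 15.2 after siNT1 and at 5.28 and 3.18 after siCAG in HeyA8, so its change rests on few reads. DUSP5, chosen after its values were seen, had 6135 and 6086 after siNT1 and 16818 and 13825 after siCAG in HeyA8. Of 31 apoptosis genes 4 rose in HeyA8, BCL2L1, BMF, BBC3 and CASP9, and 2 fell, BCL2 and CYCS. BMF, a promoter of cell death chosen after its values were seen, went from 5.19 and 32.7 to 47.5 and 254 in HeyA8. In PC3, where its change did not pass the test, it had 222 and 333 after siNT1 and 492 and 1358 after siCAG. In the matrix list of 33, LAMB2, a laminin chain, rose by 1.15 and TGFB1, a growth factor that arrests epithelial cells, fell by 3.10 in HeyA8, from 2386 and 1845 to 363 and 165. In PC3 TGFB1 was at 2042 and 1478 after siNT1 and at 1121 and 896 after siCAG, lower at each time, a change that did not pass the test (adjusted p = 0.712). Of 23 YAP and TEAD targets 2 rose in HeyA8, MYOF, a membrane protein, and AJUBA, an adaptor of cell junctions. Among the markers, HOXB13 rose in HeyA8 (adjusted p = 0.0404) at the low counts given above, and WT1, a factor of the mesothelial lineage, fell from 525 and 440 to 255 and 193. None of 15 epithelial, 12 mesenchymal or 4 blood and endothelial markers was called in either line from the 8 libraries. With 16 libraries the epithelial marker EPCAM fell and the mesenchymal markers FN1 and S100A4 rose in HeyA8, and SPARC fell in PC3. Of 15 tested genes of RNA interference (of 19) 1 fell in HeyA8 and 0 rose, and 0 differed between the lines at an unadjusted p under 0.05.

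By size, few genes responded in PC3 and not in HeyA8. Of the 15 genes lower in PC3 by size, 5 had a difference at an unadjusted p under 0.05, and of the 5 higher genes 1 had. Among the 10120 genes sorted by size, 467 had a negative and 720 a positive difference at that p. The classes were picked on the same fold changes that the p-value tests. SPARC (chr5:151661096-151687054), a matrix glycoprotein, had 240 and 239 normalized counts after siNT1 and 105 and 75.2 after siCAG in PC3. In HeyA8 it had 14501 and 19620 after siNT1 and 12270 and 17264 after siCAG. The groups did not overlap in PC3. In HeyA8 they overlapped across the times, and the siCAG library was the lower at each time. The PC3 change was −1.43 ± 0.22 (adjusted p = 0.209, and 0.0183 with 16 libraries), and the difference was −1.21 ± 0.30 (adjusted p = 0.356, and 0.0945 with 16 libraries).

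PLBD2, a lysosomal phospholipase B-like protein, had 2137 and 2601 after siNT1 and 1162 and 1108 after siCAG in PC3, against 1355 to 1845 in HeyA8. Its PC3 change did not pass the test (adjusted p = 0.46, and 0.136 with 16 libraries), and neither did its difference (adjusted p = 0.376, and 0.146 with 16 libraries). CXCL3, a chemokine, had 262 and 66.3 after siNT1 and 132 and 32.5 after siCAG in PC3 and 127 to 195 in HeyA8. Its difference of −1.28 did not pass the test (adjusted p = 0.394, and 0.16 with 16 libraries) and turned to 0.57 with mock as the control. Of the 5 genes higher in PC3, those with the smallest p for the difference were SCML1, ZSCAN12, a zinc finger gene, and CCNJ, a cyclin gene. SCML1, a Polycomb-related gene, had 827 and 541 after siNT1 and 1613 and 1286 after siCAG in PC3. The differences of SCML1, ZSCAN12 and CCNJ, at 1.28, 0.94 and 0.73, did not pass the test, with adjusted p-values of 0.29 to 0.586 in the 16 libraries. The 15 epithelial markers summed to 48822 and 43743 normalized counts after siNT1 and to 56284 and 56763 after siCAG in PC3, with KRT7, a keratin, the most abundant. Of the 15, 6 were below 0 in PC3. CDH1, singled out after its values were seen, was at 735 and 588 after siNT1 and at 227 and 216 after siCAG in PC3, a change that did not pass the test (adjusted p = 0.211, and 0.0626 with 16 libraries).

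Opposite changes were seen in 27 genes, 17 lower in PC3 and higher in HeyA8 (16 with an unadjusted p under 0.05) and 10 the other way (5). Among the 10120 genes sorted by size, 467 had a negative and 720 a positive difference at that p. The 27 were picked on the same fold changes that the p-value tests, so their counts follow in part from the choice. MSMP (chr9:35752991-35754277), prostate-associated microseminoprotein, had the smallest p for the difference among the 27. PC3 libraries had 9661 and 6662 after siNT1 and 2381 and 1250 after siCAG. HeyA8 libraries had 159 and 244 after siNT1 and 473 and 359 after siCAG. The siRNA groups did not overlap in either line. The changes were −2.22 ± 0.31 in PC3 (adjusted p = 0.169, and 0.00163 with 16 libraries) and 1.06 ± 0.31 in HeyA8 (adjusted p = 0.089, and 0.0085 with 16 libraries), and the difference was −3.28 ± 0.44 (adjusted p = 0.226, and 0.00458 with 16 libraries).

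MBP, known as myelin basic protein, had 1985 and 2574 after siNT1 and 1227 and 1324 after siCAG in PC3. In HeyA8 it had 160 and 219 after siNT1 and 228 and 360 after siCAG. The MBP difference was −1.44 ± 0.30 (adjusted p = 0.334, and 0.049 with 16 libraries). PDGFA, a platelet-derived growth factor chain, had 221 and 326 after siNT1 and 146 and 205 after siCAG in PC3. In HeyA8 it had 357 and 432 after siNT1 and 938 and 934 after siCAG, a rise that passed the test (adjusted p = 0.04). Its fall in PC3 did not (adjusted p = 0.718, and 0.754 with 16 libraries), and neither did its difference of −1.88 ± 0.32 (adjusted p = 0.261, and 0.117 with 16 libraries). IGFBP3, a carrier of insulin-like growth factors, went the other way. It had 1551 and 1196 after siNT1 and 3164 and 6979 after siCAG in PC3, and 73104 and 60433 after siNT1 and 51674 and 23899 after siCAG in HeyA8. Its difference was 2.71 ± 0.59 (adjusted p = 0.335, and 0.0494 with 16 libraries), 1.53 at 24 h and 3.88 at 48 h.

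Transcripts with long CTG runs, by contrast, were low in both lines. A run of 6 triplets or more was found in 64 tested genes, within the open reading frame in 57 and the 3′ UTR in 7, and their median change was −1.85 in PC3 and −1.78 in HeyA8. The medians in PC3 and HeyA8 were −0.75 and −0.66 for 65 genes with 5 triplets, −0.26 and −0.19 for 254 genes with 4, and −0.04 and 0.00 for 1888 genes with 3. Of the 64 genes 34 fell in HeyA8 from the 8 libraries. By the 16-library fit 41 fell in HeyA8 and 33 in PC3, against 8.19% and 0.604% of all genes, and the difference was called for 0. At an unadjusted p under 0.05 in the 8 libraries, 9 of the 64 had a positive difference and 2 a negative one, beside 6.1% and 5.49% of all genes. The median difference of the 64 was 0.33, which was 0.14 at 48 h, and −0.03 without the HeyA8 siCAG library of 48 h. The 122 genes with a CAG run of 6 or more had medians of 0.02 in PC3 and 0.05 in HeyA8. A run of at least 6 was held by 34 of the 683 genes that fell in HeyA8 from the 8 libraries, and by 33 of the 96 that fell in PC3 by the 16-library fit.

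**Figure D4:**
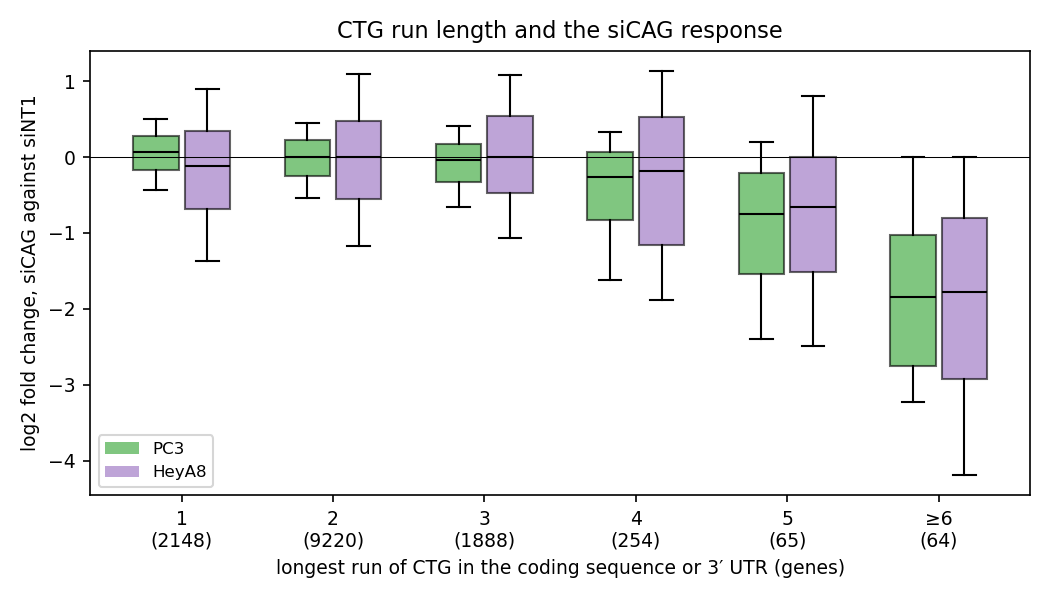
Log2 fold change of siCAG over siNT1 by the longest CTG run of a gene's reference transcript (x axis, number of triplets), in PC3 (green) and HeyA8 (purple). Boxes span the quartiles with the median as a line, whiskers reach the 10th and 90th percentiles of genes, and the number of genes stands in brackets. The medians of the 2 lines lie close together at every run length and go from near 0 at 3 triplets to −1.85 in PC3 and −1.78 in HeyA8 at 6 or more.

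RPL14 (chr3:40457292-40462372), a protein of the large ribosomal subunit whose reads could be shared with pseudogenes, had 14823 and 16442 after siNT1 and 534 and 380 after siCAG in PC3. In HeyA8 it had 27784 and 27869 after siNT1 and 480 and 243 after siCAG. The changes were −5.11 ± 0.36 in PC3 (adjusted p = 0.0627, and 7.03e-05 with 16 libraries) and −6.34 ± 0.38 in HeyA8 (adjusted p = 0.0167). The difference of 1.23 ± 0.44 did not pass the test (adjusted p = 0.41, and 0.242 with 16 libraries). PRKCSH, a subunit of the glycan-trimming glucosidase II, had 10721 and 12192 after siNT1 and 853 and 817 after siCAG in PC3, and 8701, 7407, 660 and 443 in HeyA8. NUCB1, a calcium-binding protein of the Golgi, was at 2972, 3335, 349 and 171 in PC3, while HeyA8 had 2192, 2011, 230 and 158. The differences were 0.12 ± 0.30 for PRKCSH and −0.22 ± 0.47 for NUCB1, with adjusted p-values of 0.931 and 0.908, and the sign of both depends on the libraries used. CTSA, the lysosomal protective protein, was at 7214, 9059, 982 and 1024 in PC3, while HeyA8 had 5623, 5789, 819 and 730, a difference of −0.13 ± 0.29 whose sign also depends on the libraries used. LRRC59, a membrane protein of the endoplasmic reticulum, was at 21283, 20568, 2583 and 1547 in PC3, while HeyA8 had 14196, 15301, 922 and 432, a difference of 1.15 ± 0.49 that did not pass the test (adjusted p = 0.448).

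The 10 most abundant genes took 5.55% and 5.64% of counts in the HeyA8 siNT1 libraries and 8.04% and 7.39% in the HeyA8 siCAG libraries. In PC3 the share was 3.53% to 4.08% in the 4 libraries. EEF1A1, the translation elongation factor that is among the most abundant transcripts and has many pseudogenes, was chosen after its values were seen. It rose in HeyA8 from 326836 and 385982 to 645563 and 649557. FN1, the matrix protein fibronectin, had 167216 and 77645 after siNT1 and 275147 and 350527 after siCAG in HeyA8 and 11670 to 13389 in PC3, and its HeyA8 change did not pass the test in the 8 libraries (adjusted p = 0.0665) and passed it with 16 (adjusted p = 0.0191). The part of this shift in the differences between lines was not tested.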

How the data were processed

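Per the labels, total RNA of transfected PC3 and HeyA8 cells was made into total-RNA libraries. The authors deposited whole-number counts of exonic reads per gene, not normalized. The submitters' processing notes name STAR, HTSeq and hg38. All 26485 genes were read, and 0 columns belonged to no sample. Members and lists were chosen with earlier results of these data known.

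Genes were kept by filterByExpr with line and siRNA as group, and counts were normalized by TMM (factors 0.869 to 1.14). A quasi-likelihood model with line by time as block and a siCAG term per line was fitted with edgeR 4.0.16 (R 4.3.3, limma 3.58.1) and the contrast PC3 minus HeyA8 was tested, with Benjamini-Hochberg adjustment over all genes and a threshold of 0.05. Normalized counts are counts scaled to the mean effective library size. The biological coefficient of variation was 25.7% (23.5% with 16 libraries). On simulated data with an effect in HeyA8 alone, 50 of 100 genes at log2 2 and 97 of 100 at log2 3 were recovered among 15241 genes, with 4 false calls. With 16 libraries these were 76 and 96 of 100, with 10 false calls among 15680 genes. The simulated counts had the average spread for a gene's abundance and not each gene's own spread. The shares recovered therefore need not hold for the real libraries. Replicate numbers stand for time points, and deviations from the group means correlated by 0.48 in PC3 and 0.10 in HeyA8 across genes.

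Named genes were those with the smallest difference p in each size class (mean over 100 normalized counts in each line), up to 3 members of each list, and RPL14, PRKCSH and NUCB1. Genes said to be chosen after their values were seen fall outside this rule. CTG runs came from GENCODE v44 transcripts, for which 14053 genes matched directly, 863 by an older symbol and 518 not, leaving 13639 with a coding transcript. Alternatives were DESeq2 1.42.0, RLE size factors, looser and stricter filters, mock as control, no block, all 16 libraries, single time points and each library left out. DESeq2 on 16 libraries and leaving libraries out of the 16 were added after seeing the data. Values at single time points used a pseudocount of 1.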

Additional observations from a re-analysis of the deposited data

Results flagged for a closer look

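The difference in response between the lines was itself called for 17 of the genes chosen by the rule for named genes, by edgeR with all 16 libraries at a Benjamini-Hochberg adjusted p under 0.05. In HeyA8 the response was the lower one for POLE2 (difference 3.01), RPL22L1 (2.96), WDR76 (3.47), ZNF367 (3.64), DSCC1 (3.41), SGOL2 (3.26), CENPE (3.42), KIF20B (2.88) and IGFBP3 (2.69). In HeyA8 it was the higher one for GDF15 (−3.92), CDKN1A (−2.39), PGPEP1 (−2.82), MSMP (−3.42), MBP (−1.58), BTG2 (−2.71), SESN2 (−1.997) and HIST1H2AC (−3.45). None of the 17 passed the test with 8 libraries. Apart from RPL14, PRKCSH and NUCB1, the rule picked genes by a small p in the 8 libraries. Those libraries are part of the 16, so the 17 calls follow in part from the choice. Of all 15887 genes in the 16-library fit, 61 had a positive call (0.384%) and 40 a negative one (0.252%).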

How the results depend on the processing

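The number of calls differed between settings, and the cause was not tested. Against 0 calls for the difference between the lines, all 16 libraries gave 101, DESeq2 298 and DESeq2 on 16 libraries 671. The response in PC3 (0 calls) gave 98, 147 and 288 under these settings, and 31 without the line by time block, and that in HeyA8 (1168) gave 3329, 2754 and 4025, and 695 with mock as control. Without the block the difference had 0 calls and HeyA8 1247, and RLE size factors gave 1260 with 50.6% lower against 58.5%. Called genes of the HeyA8-only lower class were 31, 86 and 162, of the HeyA8-only higher class 21, 68 and 173, and with opposite changes 3, 8 and 18. The PC3-only lower class had 3 by DESeq2 on 16 libraries.

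With each library left out of the 8 or the 16, calls ranged from 1 to 3803 for the difference, 1 to 1967 for PC3 and 610 to 6459 for HeyA8, and in the classes from 0 to 1121, 805, 16, 3 and 95 (HeyA8 lower, HeyA8 higher, PC3 lower, PC3 higher, opposite). Of the 16, leaving out the HeyA8 siCAG libraries gave 1520 and 1043 calls for the difference, a PC3 siCAG library 4 and 35, and a siNT1 library 1 to 7. With 1 library of a line left out of the 8, the spread comes from the other line alone, and the first line is assumed to vary like it. Median differences ranged from 1.56 to 3.32 for replication and from 0.64 to 5.74 for mitosis genes, all positive.

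For genes with CTG runs of at least 6 the median was 0.17 with 16 libraries and 0.14 at 48 h, and −0.062 to 0.44 with a library left out. Sterol synthesis genes turned from 0.29 to −0.037 with mock and ranged from −0.13 to 0.55 with a library left out. NF-kB targets turned to 0.33 and matrix genes to 0.079 with mock, and blood and endothelial markers (−1.25) ranged from −2.89 to 0.47 with a library left out. CXCL3 turned to 0.57 with mock. PRKCSH was at −0.041 with 16 libraries and −0.28 to 0.24 with a library left out, and NUCB1 at 0.16 at 24 h and −0.83 to 0.37 with a library left out. CTSA ranged from −0.59 to 0.087 with a library left out. Among cell type markers, ST14 turned to 2.61 with mock and PTPRC to 0.92 with mock and 0.32 at 48 h, and STEAP1, STEAP2 and CDH5 were at −0.057, −0.77 and −0.77 at 48 h. With a library left out STEAP1 ranged from −0.44 to 0.93, STEAP2 from −0.82 to 1.57, PECAM1 from −2.79 to 0.039, CDH5 from −1.60 to 3.18 and PTPRC from −4.94 to 1.16. The other 82 of the 92 genes recomputed, which are those of the rule with FAM111B, DDIT3, CTSA and LRRC59, kept their sign in every setting that gave them a value. At a floor of 50 counts no blood or endothelial marker was left to give a value. Depth differed little between libraries.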
